A study of Sus scrofa with 61 samples.

Results

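The muscle of purebred Meishan fetuses was compared with that of purebred Large White fetuses at day 90 of gestation. Meishan (MS in the labels) is a Chinese pig breed whose piglets are known for good survival at birth, and Large White (LW) is a European breed selected for lean growth. The comparison took all 8 MS and all 8 LW fetuses labelled day 90, which are 16 of the 61 fetuses of the series. The rest are 16 purebred fetuses of day 110 and the reciprocal crosses, named after boar and then sow, so that LWMS fetuses had an MS sow and MSLW fetuses an LW sow. RNA of the longissimus muscle of the back was labelled with Cy3 and hybridized to a 1-colour Agilent array of 60-base probes, with 1 array for each fetus. No fetus received a treatment. Both parents of an MS fetus were MS and both parents of an LW fetus were LW, so the breed of the fetus and the breed of the sow that carried it cannot be told apart in this comparison. In the study each sow was inseminated with mixed semen of both breeds, only male fetuses were used, and the labels do not say which fetuses were littermates, so p-values measure the spread between fetuses and may be too small where littermates resemble each other.

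Muscle fibres of the pig are nearly all formed well before birth. In late gestation they grow, replace developmental isoforms of myosin by adult ones, build the calcium and energy systems of contraction, and store the glycogen that feeds the newborn piglet, which has almost no fat to burn. Pieces of muscle also hold connective tissue, vessels, nerve, blood and fat, so that fewer cells of a type and less RNA per cell cannot be told apart.

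The scanner marked 34346 to 44483 probes as well above background on the MS arrays (median 42933.5) and 38063 to 44818 on the LW arrays (median 43550). The lowest array of each breed stood apart, MS replicate 3 and LW replicate 4, since the next lowest had 41137 and 41813. Without these 2 arrays, IGFBP3, HK1, LPL, PSMB8, CTGF, CYR61 and SOD1 lost their calls among the genes named below. Pearson's correlation across probes lay between 0.981 and 0.992 for pairs of MS arrays, between 0.981 and 0.992 for pairs of LW arrays, and between 0.969 and 0.983 for pairs of different breeds. The arrays sat on 8 slides, each with 1 MS and 1 LW fetus of day 90, so a within-slide difference exists for every slide. The 6 muscle fibre markers (CKM, ACTA1, DES, MYLPF, TNNC2 and TTN) were well above background on all 16 arrays, with a summed level of 20.73 to 20.91 in LW and 20.86 to 20.93 in MS on the log2 scale.

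All values below are log2 of the quantile-normalized intensity, and a difference is MS minus LW on that scale, followed by its standard error. The moderated test of limma with the Benjamini-Hochberg adjustment over the 42436 probes kept called 5447 probes at an adjusted p under 1%, which is 12.8% of them. Of these, 2643 were higher (6.23%) and 2804 lower (6.61%) in MS. The median absolute difference was 0.65 among the called probes and 0.17 among all probes. Differences above 1, a doubling, were seen for 595 called probes higher in MS and 793 lower in MS, and differences above 2 for 121 and 201. The groups did not overlap for 2569 of the called probes (47.2%), against 6.75% of all probes. Among the 5386 called probes measured on all 16 arrays, 4364 (81%) had the same direction on all 8 slides. The calls came from these same 16 arrays, so this share is in part built in and is no replication. A gene was represented by its brightest probe over the series, its main probe. By main probe, 1436 of 10995 named genes (13.1%) passed the test, 713 of them higher in MS (6.48%) and 723 lower (6.58%). The groups did not overlap for 7.14% of all named genes. The counts of called list members below are to be read against these shares. Of the called probes, 2521 (46.3%) had no gene name and are counted only.

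Probes of a gene did not always give the same answer, and the sequences of a few probes, read from the scanner files, show where. Thyroxine-binding globulin, SERPINA7, is shown because its difference was among the largest and because its probes do not overlap. Both are printed in full.
SERPINA7 A_72_P146506: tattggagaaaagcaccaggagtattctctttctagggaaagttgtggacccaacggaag
SERPINA7 A_72_P441484: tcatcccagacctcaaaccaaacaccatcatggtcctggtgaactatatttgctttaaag
The first probe differed by -4.77 ± 0.45 and the second by -2.29 ± 0.29, so both were lower in MS (adjusted p = 1.57e-12 and 9.90e-09). The second was well above background on no MS array, so its difference is not a measured fold. For the receptor KIT the pair below shares the bases in capitals.
KIT A_72_P180731: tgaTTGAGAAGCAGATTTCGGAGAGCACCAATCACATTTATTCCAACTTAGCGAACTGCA
KIT O299: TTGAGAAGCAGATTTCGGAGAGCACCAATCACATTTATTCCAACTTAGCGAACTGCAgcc
These overlapping probes differed by -2.05 ± 0.22 and -2.15 ± 0.18, and the other 2 KIT probes by -2.34 ± 0.12 and -2.24 ± 0.13. Phosphoglucomutase 1, PGM1, is shown because its probes split. The first 30 bases of each are printed, with the bases shared by the first pair in capitals.
PGM1 O5322: tttGCGACGTAATCCCATTCACACAAAGAT
PGM1 A_72_P233607: GCGACGTAATCCCATTCACACAAAGATTTG
PGM1 A_72_P108441: atttcttcaccaggtacgattacgaagagg
The overlapping pair was higher in MS by 3.41 ± 0.35 and 3.29 ± 0.34, while the third probe differed by 0.26 ± 0.12 (adjusted p = 0.132). Overlapping probes share their target and are not independent evidence. Of the 5287 genes with 2 or more probes, 762 were called by main probe. All other probes of the gene had the same direction for 598 of them (78.5%), no other probe was called for 333, and called probes pointed both ways for 29. A further 492 genes with several probes had a called probe that was not the main probe. Whether the breeds differ in sequence under a probe was not tested.

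The genes with the largest falls in MS were at the array's background in most MS fetuses and clearly measured in every LW fetus. MTFP1, a protein of the inner mitochondrial membrane that takes part in mitochondrial fission, was represented under that name and under its older name MTP18 by the same 60-base sequence, which begins agttgaacggaaactgagagataatgacct. Its values were 7.43 to 7.94 in LW (median 7.74) and 1.73 to 3.32 in MS (median 1.94). The scanner detected it above background on 8 of 8 LW and 0 of 8 MS arrays, so that it was at least 14.7-fold lower in MS (at least 14.9-fold by the second copy of the probe), with adjusted p = 2.28e-13 and 2.08e-13. MOS, the kinase known for holding oocytes in meiosis, gave 7.08 to 7.67 in LW (median 7.57) and 1.80 to 3.58 in MS (median 2.39). It too was well above background on no MS array and was at least 12.7-fold lower in MS (adjusted p = 4.69e-23). For both genes every LW fetus lay above every MS fetus.

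SERPINA7, which carries thyroid hormone in blood, had values of 6.73 to 7.72 in LW (median 7.36) and 1.75 to 4.22 in MS (median 2.09), and only 1 of 8 MS arrays was well above background. COBL and LYRM1 were also well above background on 1 of 8 MS arrays. COBL, a nucleator of actin filaments, differed by -3.63 ± 0.33 (adjusted p = 3.29e-13) and LYRM1 by -3.53 ± 0.56 (adjusted p = 2.46e-06). The interferon delta gene IFN-DELTA-1 differed by -3.07 ± 0.26 (adjusted p = 1.75e-14), with 3 of 8 MS arrays well above background. FGG, the gamma chain of fibrinogen, differed by -2.93 ± 0.43 (adjusted p = 4.20e-07), with 1 of 8 MS arrays well above background. Of its MS values 1 stood at 3.99 and the next at 1.95, and the groups overlapped through the first.

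The remaining large falls concerned probes measured in most or all fetuses of both breeds. TMOD3, which caps the slow-growing end of actin filaments, ranged from 7.87 to 9.52 in LW (median 8.06) and 3.79 to 4.93 in MS (median 4.42), a difference of -3.86 ± 0.35 (adjusted p = 3.63e-13). MMRN2, a glycoprotein of the matrix around endothelial cells, ranged from 10.21 to 10.55 in LW (median 10.37) and 6.76 to 7.25 in MS (median 6.92), with a difference of -3.43 ± 0.25 (adjusted p = 9.62e-17). All 5 MMRN2 probes were called lower in MS, but their differences ran from -5.76 to -1.25. KRT19, a keratin, ranged from 6.75 to 10.18 in LW (median 9.04) and 4.63 to 5.82 in MS (median 5.02) and differed by -3.41 ± 0.39 (adjusted p = 5.60e-10). The LW fetuses spread widely, with an SD of 1.31 against 0.41 in MS. NRN1, neuritin, differed by -2.83 ± 0.42 (adjusted p = 4.39e-07). KIT, named here after its values were seen, ranged from 12.66 to 13.00 in LW (median 12.85) and 10.23 to 10.70 in MS (median 10.45), a 5.07-fold difference with -2.34 ± 0.12 (adjusted p = 6.36e-23). The dominant white coat of pig breeds such as Large White is known to go with duplicated copies of KIT, and copy number was not measured here.

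The largest rises were a mixed set as well. IYD, the enzyme that recovers iodide from iodotyrosines, had values of 1.80 to 3.91 in LW (median 2.69) and 5.06 to 7.05 in MS (median 6.44) and was detected on 1 of 8 LW and 8 of 8 MS arrays. Its difference was 3.57 ± 0.39 (adjusted p = 1.18e-10), and its other 2 probes, detected on all MS and no LW arrays, were called higher in MS as well. The IYD probes overlap, each sharing 33 or 45 bases with another, so they are not independent evidence. PGM1, which interconverts glucose 1-phosphate and glucose 6-phosphate on the way into and out of glycogen, had values of 10.17 to 13.44 in LW (median 11.03) and 14.09 to 14.98 in MS (median 14.74) by its main probe. The highest LW fetus stood apart from the next, at 11.62, and still lay under every MS fetus. ENPEP, the aminopeptidase that trims angiotensin II, ranged from 8.01 to 9.08 in LW (median 8.58) and 11.21 to 11.54 in MS (median 11.28), a 6.92-fold difference with 2.79 ± 0.17 (adjusted p = 5.09e-20). All 4 ENPEP probes rose, by 2.79 to 3.23. PHYHD1, an oxygenase-like protein, rose by 2.48 ± 0.28 (adjusted p = 3.66e-10) by its main probe, while its other 2 probes differed by 0.085 and 0.31 and were not called.

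AMOTL2, a junction protein of the angiomotin family, ranged from 4.69 to 8.49 in LW (median 6.60) and 9.17 to 9.53 in MS (median 9.41). The LW fetuses had 4 values from 4.69 to 5.25 and 4 from 7.94 to 8.49, and all lay under the MS fetuses. SL44-1 showed a like spread, with 5.06 to 9.56 in LW (median 8.30) and 9.60 to 10.45 in MS (median 10.07), and was not called with the 32 purebred arrays fitted alone (adjusted p = 0.0212). The SD in LW was 1.76 for AMOTL2 and 1.83 for SL44-1, against 0.12 and 0.28 in MS. DNASE1L3, a secreted nuclease, differed by 2.56 ± 0.30 (adjusted p = 1.10e-09), and ST8SIA2, which adds polysialic acid to the adhesion protein NCAM, by 2.86 ± 0.50 (adjusted p = 1.55e-05). ST8SIA2 was detected on 1 of 8 LW arrays. ZP2, an egg coat protein, differed by 2.40 ± 0.29 (adjusted p = 4.27e-09) and was measured on 4 of 8 LW arrays. TAS2R42, a bitter taste receptor, differed by 2.59 ± 0.53 (adjusted p = 1.98e-04), and 2 of 8 LW and 7 of 8 MS arrays measured it. NELL1, a secreted protein of bone formation, differed by 2.87 ± 0.57 (adjusted p = 1.12e-04), and LOC100302368 by 3.30 ± 0.68 (adjusted p = 1.93e-04). The groups overlapped for these last 3 genes.

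**Figure D1:**
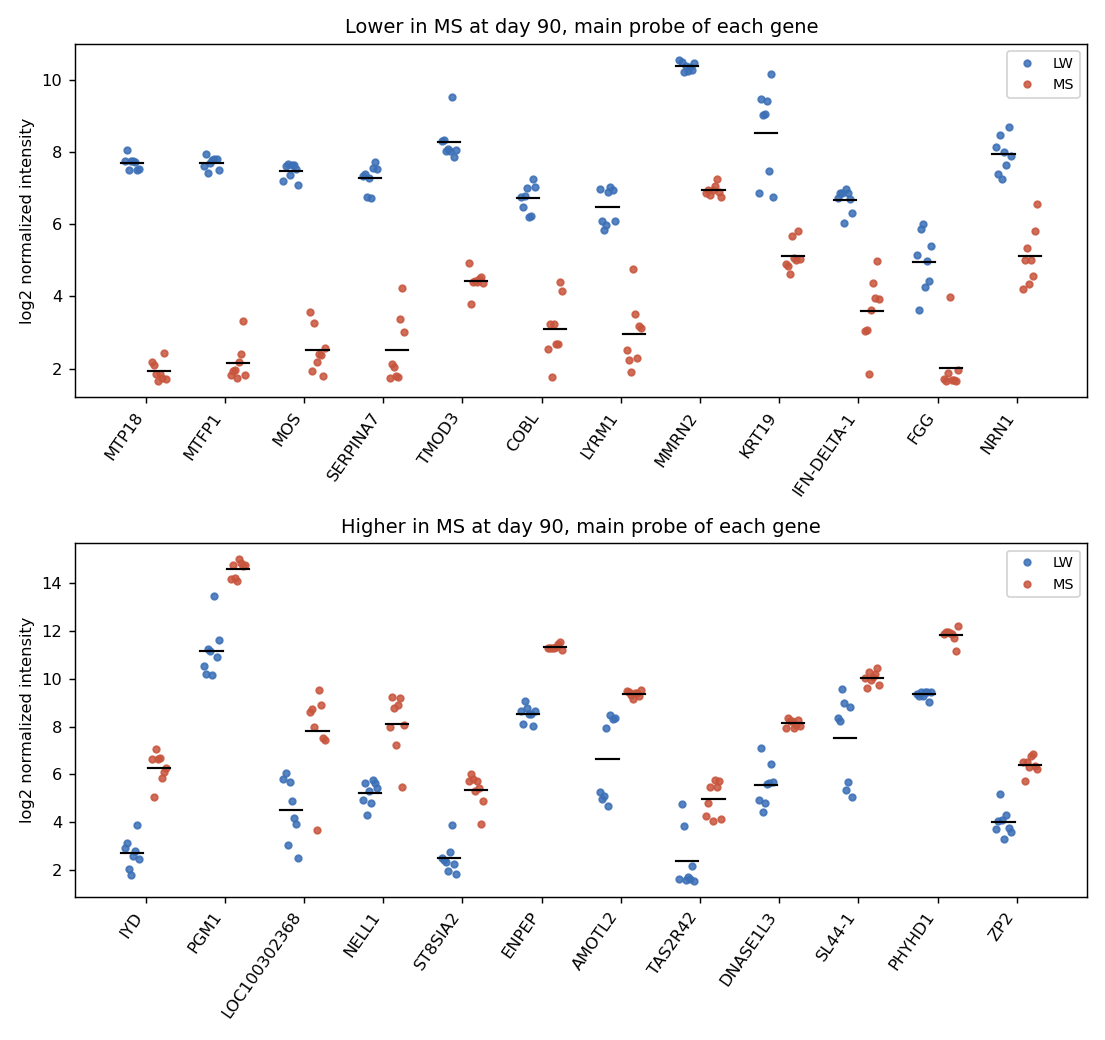
Log2 normalized intensity of the main probe of the 12 genes with the largest difference in each direction, with 1 point for each of the 8 LW (blue) and 8 MS (red) fetuses of day 90 and a bar at the group mean. MTP18 and MTFP1 are the same probe sequence; in the upper panel the groups overlap only for FGG, and in the lower panel for LOC100302368, NELL1 and TAS2R42.

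Proteins of the sarcomere gave calls in both directions, and those of the fetal and cardiac type gave none. None of the 12 fetal and cardiac sarcomere proteins passed the test (median difference 0.0022, and 1 member at an unadjusted p under 0.05), against 13.1% of all genes, whose median difference was -0.0007 over all probes. The nearest to the threshold were TTN, the giant spring of the sarcomere, at 0.44 ± 0.18 (adjusted p = 0.0816), and TNNT2, the cardiac troponin T that fetal muscle also makes, at -0.30 ± 0.19 (adjusted p = 0.295). Of the 6 myosin heavy chains, 2 rose and none fell. MYH4, the fast chain of type IIB fibres, differed by 0.49 ± 0.10 (adjusted p = 2.60e-04) and MYH1, the chain of type IIX fibres, by 0.57 ± 0.13 (adjusted p = 9.42e-04). Myosin chains are near-identical over long stretches, so a probe may read more than 1 of them, and the other probes gave 0.23 to 2.17 for MYH4 and 0.23 to 2.11 for MYH1. MYH1 did not pass under scaling to the 75th percentile (adjusted p = 0.0161) or with the 16 arrays fitted alone (adjusted p = 0.028). MYH3, the embryonic chain, had values of 17.72 to 18.06 in LW (median 17.91) and 16.96 to 17.47 in MS (median 17.34). The groups did not overlap, but the difference of -0.60 ± 0.21 missed the threshold (adjusted p = 0.0359). That standard error rests on a spread pooled over all 8 groups, those of day 110 included, so the miss does not show equal levels.

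Slow and fast fibre proteins changed in both directions. Of 15 slow fibre proteins, 2 rose and 3 fell (median 0.016; 0 and 2 under 75th percentile scaling), and of 16 fast fibre proteins, 2 rose and 2 fell (median 0.083). Among the slow ones MYOZ2, a Z-disc protein, differed by -0.48 ± 0.10 (adjusted p = 3.43e-04) with all 12 of its other probes lower too, and ANKRD2, a stretch-responsive protein of the Z-disc and nucleus, by -0.62 ± 0.15 (adjusted p = 0.00117). CASQ2, the calcium store of slow fibres and heart, also fell, with a difference of -0.41. ATP2A2, the slow calcium pump of the sarcoplasmic reticulum, differed by 0.34 ± 0.080 (adjusted p = 0.00112) and MYL6B, a myosin light chain, by 0.36 ± 0.084 (adjusted p = 0.00102), and neither was called under 75th percentile scaling (adjusted p = 0.0215 and 0.105), nor ATP2A2 with the marked spots kept (adjusted p = 0.344). Among the fast ones CASQ1, the calcium store of fast fibres, ranged from 15.32 to 15.79 in LW (median 15.55) and 15.95 to 16.64 in MS (median 16.31) and rose by 0.73 ± 0.10 (adjusted p = 5.18e-08) with all 4 probes called. KLHL41, which stabilizes the thin filament, fell by 0.91 ± 0.12 on the log2 scale (adjusted p = 1.10e-08). SLN, a small inhibitor of the calcium pump, differed by 0.18 ± 0.046 (adjusted p = 0.00191), but by 0.071 under 75th percentile scaling (adjusted p = 0.632), and it missed the threshold with normexp background correction, with the median signal, with the authors' deposited values and with the 16 arrays fitted alone. TNNT3, fast troponin T, differed by -0.38 ± 0.055 (adjusted p = 3.44e-07) by its main probe, but 1 other probe was called higher in MS by 0.83, and the mean of its 5 probes differed by 0.09. TNNT3 is spliced into many isoforms, and a probe reads only those that hold its exon.

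The members of calcium handling and excitation, 22 tested, included 3 that rose and 1 that fell (median 0.10). ATP1B1, a beta subunit of the sodium pump, rose by 0.49 ± 0.11 (adjusted p = 6.69e-04) and CAMK2A, a calcium-dependent kinase, by 0.34 ± 0.074 (adjusted p = 3.20e-04). SRL, sarcalumenin of the sarcoplasmic reticulum, ranged from 11.35 to 11.99 in LW (median 11.76) and 9.70 to 10.20 in MS (median 9.98) and differed by -1.78 ± 0.13 (adjusted p = 9.62e-17), while its second probe differed by 0.055. None of 7 neuromuscular junction genes passed (2 at an unadjusted p under 0.05, median -0.0047). The nearest were LRP4, the agrin receptor, at -0.24 ± 0.088 (adjusted p = 0.0432) and CHRNA1, the acetylcholine receptor subunit, at 0.34 ± 0.14 (adjusted p = 0.0879). Of 7 creatine system genes, 3 rose and 1 fell. CKB, the creatine kinase of brain and immature muscle, fell by 0.86 ± 0.14 on the log2 scale (adjusted p = 1.81e-06), and CKMT2, the mitochondrial kinase, rose by 0.74 ± 0.15 (adjusted p = 1.60e-04). CKM, the adult muscle kinase, rose by 0.23 ± 0.061 (adjusted p = 0.00394) and SLC6A8, the creatine carrier, by 0.35 ± 0.081 (adjusted p = 0.00107). SLC6A8 was not called by the mean of its probes (adjusted p = 0.0253) or with the marked spots kept (adjusted p = 0.759). CKM was not called under 75th percentile scaling (adjusted p = 0.325), nor without any 1 of LW replicates 3 and 7 and MS replicates 5 and 6.

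None of the 23 myogenic regulators passed the test (median 0.033, with 8 at an unadjusted p under 0.05). The satellite cell factor PAX7 differed by 0.28, the myogenic factors MYOD1 by 0.18, MYOG by -0.17 and MYF5 by 0.033, and myostatin, MSTN, by 0.091. The nearest to the threshold were NCAM1, the adhesion protein of young fibres, at -0.46 ± 0.15 (adjusted p = 0.0165) and DLK1, an imprinted inhibitor of differentiation, at -0.66 ± 0.22 (adjusted p = 0.0238). The DLK1 groups did not overlap, with 12.47 to 12.83 in LW (median 12.71) and 11.88 to 12.23 in MS (median 12.01), and 1 of its 3 other probes was called. Its SD at day 90 was 0.14 in LW and 0.12 in MS. The standard error of 0.22 uses a spread pooled over all 8 groups of both ages. By the mean of its probes DLK1 was called, with a difference of -0.56 (adjusted p = 0.00851).

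Of 15 IGF system genes, 1 rose and 2 fell (median -0.064). IGFBP2 and IGFBP3, which bind IGFs outside the cell, differed by -0.54 ± 0.10 (adjusted p = 3.08e-05) and -0.65 ± 0.17 (adjusted p = 0.00247), and IGFBP5, made by differentiating muscle cells, by 0.36 ± 0.091 (adjusted p = 0.00234). IGFBP3 did not pass without the 2 arrays with the fewest detected probes, and IGFBP5 did not pass by the mean of its probes. IGF2, the main fetal growth factor of the family, differed by -0.0061 ± 0.054 by its main probe and was not called, with values of 17.38 to 17.64 in LW (median 17.51) and 17.36 to 17.64 in MS (median 17.50). Its 7 other probes were all called lower in MS, with differences from -0.48 to -0.30, so the main probe, the brightest of the 8, does not stand for them.

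Among 22 imprinted genes 2 rose and none fell (median -0.10). MAGEL2, expressed from the paternal copy, ranged from 8.44 to 9.32 in LW (median 8.95) and 9.92 to 10.39 in MS (median 10.12) and rose by 1.21 ± 0.13 (adjusted p = 3.44e-11), and its second probe rose by 2.45. SLC38A4, an amino acid carrier, ranged from 5.63 to 6.66 in LW (median 6.40) and 7.16 to 7.94 in MS (median 7.67) and rose by 1.36 ± 0.22 (adjusted p = 2.58e-06).

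Glycogen genes stood among the lists with the most calls. Of 16, 6 rose and 1 fell, with a median difference of 0.20, against 6.48% of all named genes called higher and 6.58% called lower. Besides PGM1, PHKA1, the X-linked alpha subunit of phosphorylase kinase in muscle, had values of 9.42 to 9.70 in LW (median 9.57) and 10.22 to 10.49 in MS (median 10.38) and rose by 0.80 ± 0.10 (adjusted p = 1.24e-08), with every MS fetus above every LW fetus. GYG1, glycogenin, which primes a new glycogen particle, rose by 0.42 ± 0.095 (adjusted p = 6.22e-04). PHKB (0.40), EPM2A (0.42) and PPP1R3C (0.55) rose as well. The member that fell was UGP2, which makes UDP-glucose for glycogen synthesis, from 12.79 to 13.15 in LW (median 13.02) and 12.23 to 12.71 in MS (median 12.61), and 4 of its 5 other probes were also called lower. PYGM, muscle phosphorylase, differed by 0.058 ± 0.13 and GBE1, the branching enzyme, by -0.0087 ± 0.16, neither called. The counts were 6 and 1 with gene means over probes and without the 2 arrays with few detected probes.

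Of 18 glycolysis genes, 1 rose and 1 fell (median 0.067). ENO3, muscle enolase, rose by 0.28 ± 0.068 (adjusted p = 0.00131) and HK1, a hexokinase, fell by 0.28 ± 0.074 on the log2 scale (adjusted p = 0.00317). ENO3 was not called under 75th percentile scaling (adjusted p = 0.326) and HK1 without the 2 arrays with the fewest detected probes (adjusted p = 0.0101). LDHA was at 0.12 ± 0.17, PGK1 at -0.24 ± 0.094 and PCK2, the mitochondrial enzyme that makes phosphoenolpyruvate, at -0.36 ± 0.28, none of them called. SORD, which converts sorbitol to fructose, was at -0.16 ± 0.15, and ARG2, mitochondrial arginase, at -0.077 ± 0.40. GPD1, which links glycolysis to lipid synthesis and to electron shuttling, rose by 0.76 ± 0.15 (adjusted p = 8.89e-05) with values of 14.09 to 14.35 in LW (median 14.26) and 14.71 to 15.26 in MS (median 15.09).

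Of 24 fatty acid oxidation genes, 5 rose and 2 fell (median 0.21), and 22 of 24 differences were positive. ECI2, an isomerase needed to break down unsaturated fatty acids, ranged from 6.55 to 8.22 in LW (median 7.02) and 8.77 to 9.42 in MS (median 9.18), a 3.77-fold rise with 1.91 ± 0.17 (adjusted p = 2.67e-13), and its second probe rose by 1.87. ACAT1, a thiolase of ketone and isoleucine breakdown, rose by 0.47 ± 0.078 (adjusted p = 6.16e-06), ACSL1, which activates fatty acids, by 0.57 ± 0.11 (adjusted p = 1.30e-04), and ECHS1 and HADHB by 0.62 and 0.31. ACADL, a dehydrogenase of long-chain fatty acids, fell by 0.42 on the log2 scale. By the mean of all probes of a gene the counts were 2 and 1, the other probe of ACAT1 differed by -0.051, and ACAT1 was not called (adjusted p = 0.103). ECI1, which the study calls DCI, differed by 0.081 ± 0.16, not called. UCP3, the uncoupling protein of muscle mitochondria, was named after its values were seen. It ranged from 9.67 to 11.57 in LW (median 10.74) and 12.21 to 12.62 in MS (median 12.45) and rose by 1.78 ± 0.25 (adjusted p = 1.51e-07), with other probes at 0.073 and 1.34.

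Lipid uptake and storage moved both ways, with 3 of 27 members higher and 2 lower (median 0.039). FABP5, a fatty acid binding protein, rose by 0.56 ± 0.090 (adjusted p = 2.11e-06) with all 4 probes called, and PPARGC1A, a coactivator of mitochondrial genes, by 0.46 ± 0.10 (adjusted p = 2.70e-04). FABP4, the binding protein of adipocytes, fell by 0.78 ± 0.17 on the log2 scale (adjusted p = 5.64e-04) and LPL, lipoprotein lipase, by 0.55 ± 0.15 on the log2 scale (adjusted p = 0.00637). PPARD, a nuclear receptor for fatty acids, was the other that rose, by 0.50. LPL lost its call without any 1 of 10 of the 16 fetuses, LW replicate 3 among them (adjusted p = 0.0269), under 75th percentile scaling (adjusted p = 0.016) and without the 2 arrays with the fewest detected probes (adjusted p = 0.0116).

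The citric acid cycle had 2 of 26 members higher and none lower (median 0.089), MDH2, malate dehydrogenase, at 0.54 ± 0.13 (adjusted p = 0.00123) and SUCLA2, a succinyl-CoA ligase subunit, at 0.46 ± 0.12 (adjusted p = 0.00203), which was not called under 75th percentile scaling (adjusted p = 0.0101). Of 45 nuclear-encoded respiratory chain genes, 8 rose and 3 fell, with a median of 0.14. COX7B, a small subunit of complex IV, ranged from 14.68 to 14.87 in LW (median 14.85) and 13.54 to 14.07 in MS (median 13.86) and differed by -0.98 ± 0.10 (adjusted p = 8.42e-12). UQCRC2, a core protein of complex III, differed by -1.11 ± 0.16 (adjusted p = 2.81e-07). NDUFA4, a further complex IV subunit, rose by 0.39 ± 0.058 (adjusted p = 6.47e-07), but was not called under 75th percentile scaling (adjusted p = 0.0278). CYCS, cytochrome c, rose by 0.77 ± 0.11 (adjusted p = 2.18e-07), but among its 14 probes, 8 were called higher and 1 lower, at -3.82, and its mean over probes was not called. CYCS has many processed copies in mammalian genomes, so its probes are uncertain. Under 75th percentile scaling the respiratory chain counts were 3 and 2 in place of 8 and 3. Of 11 genes of myoglobin and iron, 1 rose and none fell. It was MB, myoglobin, the oxygen store of muscle, with values of 7.69 to 8.00 in LW (median 7.83) and 8.25 to 9.64 in MS (median 8.97) and a rise of 1.14 ± 0.17 (adjusted p = 9.05e-07). SLC11A2, an iron carrier, was the next at -0.25 ± 0.079 (adjusted p = 0.0192).

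Of the 13 genes encoded in the mitochondrial genome, 2 rose and 4 fell by main probe (median -0.16). COX3 differed by -0.40 ± 0.055 (adjusted p = 9.25e-08), ATP6 by -0.25 ± 0.056 (adjusted p = 4.94e-04), ND4L by 0.53 ± 0.083 (adjusted p = 1.48e-06) and ND6 by -0.56 ± 0.093 (adjusted p = 4.98e-06). ATP6 was not called with the 16 arrays fitted alone (adjusted p = 0.0151). Probes of a mitochondrial gene differed from each other. ND2 and ND4, chosen after their values were seen, show the extremes. All 12 ND2 probes were lower in MS, 11 of them called, with differences from -3.50 to -0.30. ND4 had 7 of 11 probes called higher and none called lower, with differences from -0.30 to 0.48, and its main probe was not called under 75th percentile scaling (adjusted p = 0.267). ND6 had 1 probe called in each direction, -0.56 and 0.87, and the mean of the pair differed by 0.15. COX3 had 2 of 14 probes called, both lower. Without LW replicate 8, the array with the most spots marked non-uniform (802, against 45 on the next), the list's counts were 1 and 6.

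Genes of antigen presentation rose more often than any other pathway list with 10 or more members. Of 23 tested, 13 rose and none fell, with a median difference of 0.45, against 6.48% of all genes called higher. B2M, the light chain of class I molecules, ranged from 14.34 to 14.45 in LW (median 14.39) and 14.73 to 15.68 in MS (median 15.18) and rose by 0.72 ± 0.11 (adjusted p = 6.92e-07) with all 9 probes called. Every MS fetus lay above every LW fetus. SLA-1, a classical class I chain of the pig, ranged from 14.51 to 15.16 in LW (median 14.78) and 14.96 to 16.04 in MS (median 15.52) and rose by 0.66 ± 0.12 (adjusted p = 3.48e-05). The related SLA-5 rose by 0.85 ± 0.16 (adjusted p = 4.56e-05), and PSMB9, an immunoproteasome subunit, by 0.74 ± 0.13 (adjusted p = 1.77e-05). Class I genes are close paralogs and highly variable between pigs, so which of them a probe reads is uncertain. PSMB8, SLA-DOA, SLA-DQB1, SLA-DQA1, SLA-DRA, CD74, SLA-3, SLA-8 and TAP1 also rose, by 0.36 to 1.38. SLA-5 was not called by the mean of its probes (0.67, adjusted p = 0.191). PSMB8 lost its call without any 1 of 8 fetuses, MS replicate 2 among them (adjusted p = 0.0304), without the 2 arrays with the fewest detected probes (adjusted p = 0.0383), with slide as a block (adjusted p = 0.0107) and by the mean of its probes (adjusted p = 0.0101). The class II genes among them are made mostly by antigen-presenting cells.

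Of 25 interferon-stimulated genes, 7 rose and none fell, with a median of 0.53. GBP1, an interferon-induced GTPase, ranged from 6.03 to 6.42 in LW (median 6.30) and 7.74 to 8.36 in MS (median 7.97) and rose by 1.68 ± 0.19 (adjusted p = 2.34e-10), a 3.2-fold difference with little spread in either breed. EIF2AK2, the kinase PKR, rose by 0.72 ± 0.14 (adjusted p = 1.33e-04). MX1, an antiviral GTPase, ranged from 8.07 to 9.30 in LW (median 8.60) and 9.54 to 12.93 in MS (median 10.40) and rose by 2.01 ± 0.40 (adjusted p = 1.23e-04). ISG15, a ubiquitin-like protein, ranged from 8.18 to 9.19 in LW (median 8.62) and 9.24 to 12.71 in MS (median 10.25) and rose by 1.77 ± 0.38 (adjusted p = 3.09e-04). IRF1 (0.53), IFIT1 (1.23) and IFIH1 (0.58) made up the rest. OAS1, named after its values were seen, had the largest mean difference at 3.18 ± 1.12 and was not called (adjusted p = 0.036), with values of 1.99 to 7.09 in LW (median 3.23) and 4.58 to 9.07 in MS (median 7.44).

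A single fetus was high for most of these genes. MS replicate 2 had the highest MS value for 22 of 25 interferon-stimulated genes, including all 7 called, and for 16 of 23 antigen presentation genes, including 12 of 13 called. Without that fetus, 6 interferon-stimulated and 9 antigen presentation genes were called higher and none lower. Without MS replicate 3 and LW replicate 4 the counts were also 6 and 9. None of the 7 leukocyte markers passed the test (median -0.17, 1 at an unadjusted p under 0.05), with a summed level of 12.70 to 13.15 in LW and 12.72 to 13.07 in MS. Their part in the result was not tested. CD68 was at 0.68 ± 0.29, measured on 5 of 8 LW and 7 of 8 MS arrays, and CSF1R at -0.21 ± 0.13. CD5, the single T cell marker tested, was at -0.23 ± 0.29.

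**Figure D2:**
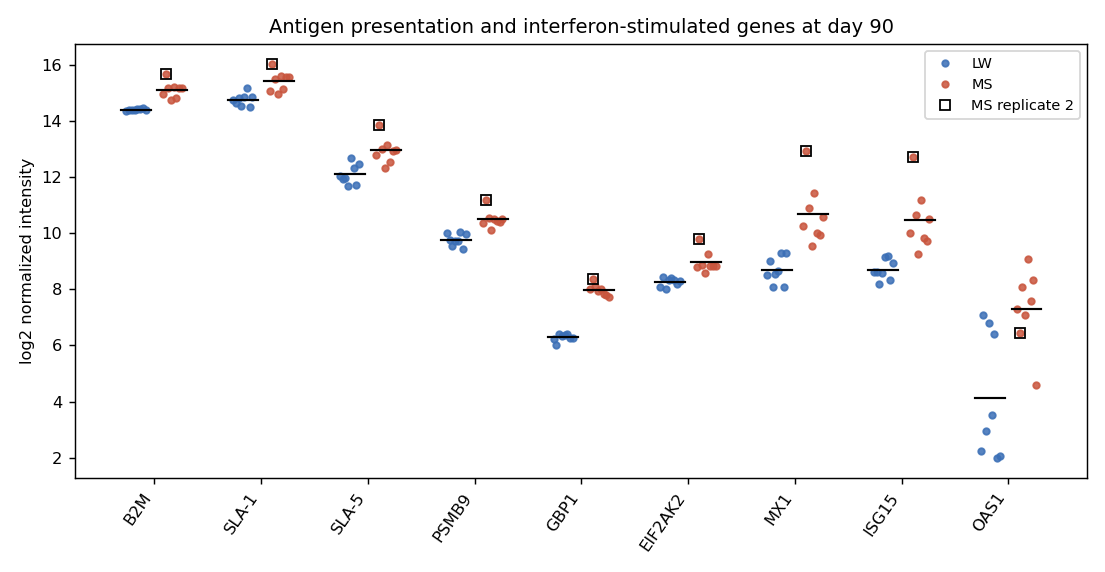
Log2 normalized intensity in each LW (blue) and MS (red) fetus of day 90 for 4 antigen presentation and 5 interferon-stimulated genes, with bars at the group means and MS replicate 2 in a square. That fetus is the highest MS fetus for every gene shown except OAS1, and the groups do not overlap for B2M, PSMB9, GBP1, EIF2AK2, MX1 and ISG15.

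Collagens and other matrix proteins changed in both directions. Of 17 collagens 1 rose and 2 fell (median -0.17). COL6A1, a chain of the microfibrils around fibres, differed by -0.49 ± 0.11 (adjusted p = 5.40e-04), COL5A1, a chain of thin fibrils, by -0.64 ± 0.15 (adjusted p = 0.00127) and COL15A1, a basement membrane chain, by 0.52 ± 0.13 (adjusted p = 0.00263). By the mean of its probes COL5A1 was not called (adjusted p = 0.0266). COL5A2 was at -0.21 ± 0.11, not called. Of 31 matrix and remodelling genes, 2 rose and 2 fell (median -0.0024). THBS4, a thrombospondin of tendon and muscle, differed by -0.81 ± 0.17 (adjusted p = 1.97e-04) and TNC, tenascin C of the muscle-tendon junction, by -0.75 ± 0.18 (adjusted p = 0.00137), the latter not called by the mean of its probes (adjusted p = 0.0116). CTGF and CYR61, secreted proteins induced by stretch and growth factors, rose by 0.98 ± 0.24 (adjusted p = 0.00196) and 0.72 ± 0.19 (adjusted p = 0.00344), and neither passed without the 2 arrays with the fewest detected probes. Vessel growth genes had 2 of 19 higher and 1 lower (median 0.17). VEGFA, the main growth signal of vessels, ranged from 8.69 to 9.35 in LW (median 9.03) and 9.45 to 10.32 in MS (median 9.96) and rose by 0.91 ± 0.094 (adjusted p = 3.07e-11), EPAS1, an oxygen-sensing factor, by 0.31 ± 0.070 (adjusted p = 7.96e-04), and KDR, a VEGF receptor, fell by 0.71 ± 0.17 on the log2 scale (adjusted p = 8.83e-04) by its main probe while its other 2 probes were at 0.23 and 0.25. By the mean of all probes the vessel counts were 6 and 0.

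Cell cycle genes gave 1 call each way. Of 21 mitosis genes, 1 fell and none rose (median 0.059), AURKA, a spindle kinase, at -0.58 ± 0.12 (adjusted p = 2.39e-04). MKI67, a marker of cycling cells, was at 0.26 ± 0.083, NUSAP1 at -0.018 ± 0.15 and STMN1, which binds tubulin, at -0.14 ± 0.12. Of 15 DNA replication genes, 1 rose and none fell, DUT, which removes dUTP, at 0.32 ± 0.079 (adjusted p = 0.00162), not called with the median signal (adjusted p = 0.012), with normexp or with the authors' deposited values. CDK6 was at -0.038 ± 0.080. Of 45 cytosolic ribosomal proteins, 1 rose and 3 fell (median -0.045), among them RPS4X at -0.33 ± 0.057 (adjusted p = 8.97e-06), RPL15 at -0.37 ± 0.080 (adjusted p = 3.22e-04) and RPL27 at 0.25 ± 0.058 (adjusted p = 9.75e-04). RPL15 was not called by the mean of its probes (-0.17, adjusted p = 0.0396). RPL27, the only member that rose, was at 0.14 under 75th percentile scaling (adjusted p = 0.261) and was not called with normexp background correction, the median signal or the authors' deposited values. Ribosomal protein genes have many processed copies, and the gene a probe reads is uncertain. Of 25 proteasome genes, 1 rose and none fell, PSMC1 at 0.36 ± 0.069 (adjusted p = 8.41e-05), and its 3 other probes lay between -0.14 and 0.033, so that it was not called by the mean of its probes (adjusted p = 0.652). PSMD1 was next at 0.15 ± 0.051 (adjusted p = 0.0304).

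The lists of stress and hormone responses had called shares from 0% to 22.7%, against 13.1% of all named genes. Of 22 heat shock genes, 4 rose and 1 fell (median 0.20), or 2 and 1 under 75th percentile scaling. HSP70.2, the inducible chaperone, ranged from 10.11 to 10.69 in LW (median 10.31) and 10.81 to 12.30 in MS (median 10.98) and rose by 0.87 ± 0.17 (adjusted p = 9.05e-05), HSPA5, the chaperone of the endoplasmic reticulum, fell by 0.60 ± 0.13 on the log2 scale (adjusted p = 4.38e-04), and BAG3 and HSPB7, which help to maintain the sarcomere, rose by 0.39 ± 0.093 and 0.42 ± 0.11. HSPB2, a small chaperone of muscle, was the other that rose, by 0.27. HSPB7 was not called under 75th percentile scaling (adjusted p = 0.0104), nor BAG3 with the median signal (adjusted p = 0.0114). Of 28 antioxidant genes, 4 rose and none fell (median 0.12), TXN, thioredoxin, at 0.37 ± 0.071 (adjusted p = 6.57e-05), GSTP1 at 0.54 ± 0.11 (adjusted p = 1.04e-04), GCLM, of glutathione synthesis, at 0.62 ± 0.13 (adjusted p = 3.47e-04) and SOD1 at 0.26 ± 0.066 (adjusted p = 0.00205). SOD1 was not called without the 2 arrays with the fewest detected probes (adjusted p = 0.0115) or under 75th percentile scaling (adjusted p = 0.0409). None of 13 genes of amino-acid stress and serine synthesis passed (3 at an unadjusted p under 0.05, median 0.17), with VLDLR at 0.21 ± 0.070 and PSAT1, an enzyme of serine synthesis, at -0.48 ± 0.21. Of 18 immediate early and cAMP response genes, 2 rose and none fell, and the median was 0.35. DUSP1, a phosphatase of MAP kinases, rose by 0.77 ± 0.17 (adjusted p = 4.01e-04) and the transcription factor EGR1 by 1.06 ± 0.25 (adjusted p = 0.00126). FOS was at 0.95 and NR4A3 at 1.65, neither called, and CREM, of the cAMP response, at 0.22 ± 0.10. Of 14 genes of glucocorticoid and thyroid response, 2 rose and none fell (median 0.022). KLF9, a transcription factor induced by both hormones, ranged from 9.96 to 11.80 in LW (median 10.68) and 11.47 to 12.66 in MS (median 12.36) and rose by 1.51 ± 0.21 (adjusted p = 8.61e-08), with 7 of 11 probes called higher. DIO2, which activates thyroid hormone within cells, rose by 0.83 ± 0.20 (adjusted p = 0.00151). Of 16 genes of atrophy and autophagy, 2 rose and none fell, BECN1 at 0.58 ± 0.093 (adjusted p = 2.41e-06) and ATG7 at 0.22 ± 0.057 (adjusted p = 0.0039), the latter not called with the median signal (adjusted p = 0.0161). The second BECN1 probe was at -0.24, and by the mean of all probes no member passed. RASGRP3, an activator of Ras, was at 0.033 ± 0.13, not called.

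**Figure D3:**
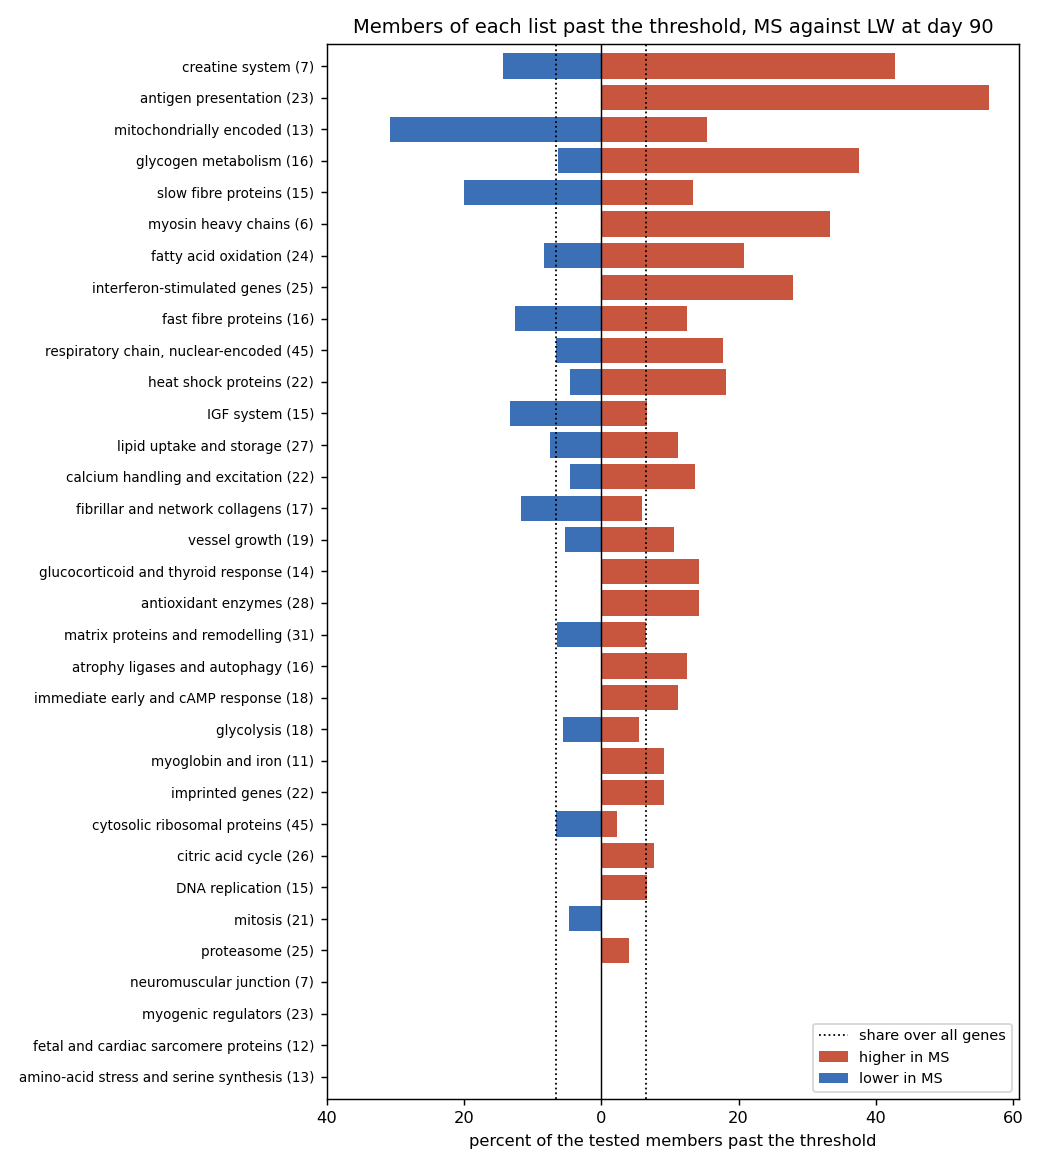
Percent of the tested members of each pathway list (number in brackets) that passed the 1% threshold, higher in MS to the right and lower in MS to the left, with dotted lines at the share over all named genes (6.48% and 6.58%). Antigen presentation reaches furthest to the right, and 4 lists have no member past the threshold.

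The lists of markers of other cell types, with 1 to 8 members tested, had called shares from 0% to 37.5%, against 13.1% of all named genes. The smooth muscle and pericyte list had 2 of 6 members called higher and none called lower (median 0.66), with differences from -0.39 to 0.91. They were RGS5 at 0.73 ± 0.10 (adjusted p = 2.50e-08) and CSPG4 at 0.90 ± 0.15 (adjusted p = 8.04e-06), whose second probe was at 0.30 and not called. The summed level of the same 6 members did not overlap, with 13.55 to 13.79 in LW and 14.01 to 14.26 in MS. The Schwann cell and nerve list had 2 of 7 higher and none lower (median 0.10), S100B at 1.18 ± 0.13 (adjusted p = 2.71e-10) and MBP at 0.48 ± 0.14 (adjusted p = 0.00735), and a summed level of 14.03 to 14.47 in LW and 14.54 to 15.09 in MS, while the defining marker SOX10 (-0.13) was not called. MBP lost its call without any 1 of 8 fetuses, LW replicate 8 among them (adjusted p = 0.0229), under 75th percentile scaling (adjusted p = 0.0103), with slide as a block (adjusted p = 0.0105), with the 32 purebred arrays fitted alone, with no filter on dim probes and by the mean of its probes, which would leave S100B as the 1 member called. The adipocyte list had 2 of 8 higher, GPD1 and CIDEA, the latter at 0.65 ± 0.13 (adjusted p = 2.08e-04), and 1 lower, FABP4, with ADIPOQ at -0.57 and LEP at -0.11 and a summed level of 15.14 to 15.69 in LW and 15.35 to 15.67 in MS. The fibroblast list had 1 of 6 lower and none higher, but 4 of its 6 differences were positive (median 0.049). The member called was DPT at -0.79 ± 0.14 (adjusted p = 2.30e-05), with LUM next at -0.30 ± 0.11. The summed level of the fibroblast list was 18.24 to 18.57 in LW and 18.40 to 18.51 in MS. The cartilage and tendon list had 1 of 5 lower, COMP at -0.75 ± 0.14 (adjusted p = 4.54e-05), with COL2A1 at -0.29 ± 0.44 and a summed level of 12.76 to 13.82 in LW and 12.22 to 13.24 in MS. None of 5 endothelial markers passed (1 at an unadjusted p under 0.05, VWF at 0.44 ± 0.20, TIE1 at 0.20 ± 0.11), with a summed level of 14.52 to 14.89 in LW and 14.57 to 14.86 in MS. None of 6 erythroid markers passed either (0 at an unadjusted p under 0.05, AHSP at 0.29 ± 0.20, HBB at -0.14 ± 0.14), at 12.55 to 12.81 and 12.59 to 12.82. Of the muscle fibre markers 1 of 6, CKM, rose. The part of these cell types in the differences above was not tested.

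The same breed difference was measured in other fetuses at day 110, with 9 LW and 7 MS arrays. Of the 5447 probes called at day 90, 4919 (90.3%) had the same sign there, 3390 (62.2%) were also called in the same direction, and 61 were called in the opposite one, where 29.0% of all probes were called at day 110. By main probe, 1256 of the 1436 genes (87.5%) had the same sign and 851 were called again, where 31.6% of all named genes were called at day 110. The change of the breed difference between the ages was itself tested. It passed for 2524 of all probes (5.95%), for 859 of all named genes (7.81%) and for 522 of those called at day 90 (9.58%). Of the 2524 probes, 43.0% had a more positive difference at day 110, against 63.7% of 3162 under 75th percentile scaling. Of the 522, 290 had the opposite sign at day 110, 105 a smaller and 127 a larger difference of the same sign.

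Most of the largest differences were there at both ages. TMOD3 differed by -3.86 ± 0.35 at day 90 and -4.97 ± 0.35 at day 110 (adjusted p = 0.126 for the change between the ages), PGM1 by 3.41 ± 0.35 at day 90 and 3.01 ± 0.35 at day 110 (adjusted p = 0.659 for the change between the ages), and KIT by -2.34 ± 0.12 at day 90 and -2.34 ± 0.12 at day 110 (adjusted p = 0.996 for the change between the ages). Others shrank. ENPEP differed by 2.79 ± 0.17 at day 90 and 0.55 ± 0.17 at day 110 (adjusted p = 2.85e-09 for the change between the ages), KRT19 by -3.41 ± 0.39 at day 90 and -0.64 ± 0.39 at day 110 (adjusted p = 4.08e-04 for the change between the ages) and SERPINA7 by -4.77 ± 0.45 at day 90 and -2.36 ± 0.45 at day 110 (adjusted p = 0.00759 for the change between the ages). For SERPINA7 only 1 of 8 MS arrays was well above background at day 90, so its difference there is not a measured fold. ZP2 turned, with 2.40 ± 0.29 at day 90 and -0.99 ± 0.30 at day 110 (adjusted p = 8.20e-08 for the change between the ages). GBP1 and FABP5 were higher in MS at day 90 and not called later, GBP1 with 1.68 ± 0.19 at day 90 and 0.035 ± 0.19 at day 110 (adjusted p = 1.86e-05 for the change between the ages) and FABP5 with 0.56 ± 0.090 at day 90 and -0.10 ± 0.090 at day 110 (adjusted p = 2.38e-04 for the change between the ages). UGP2 was lower in MS at day 90 and higher at day 110, with -0.43 ± 0.092 at day 90 and 0.39 ± 0.093 at day 110 (adjusted p = 1.43e-05 for the change between the ages). CSPG4 and CTGF, higher in MS at day 90, were at -0.52 and -0.61 at day 110. Of the 7 interferon-stimulated genes called at day 90, 0 were called in the same direction at day 110, and of the 13 antigen presentation genes, 7. The change between the ages passed for 2 of the former and for 0 of the latter.

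Several genes went the other way, not called at day 90 and further apart at day 110. Most of those given here are named by the study, which drew them largely from probes with an interaction of age and genotype. The study used these same arrays, so their passing the test of a change between the ages is no independent support. ARG2 differed by -0.077 ± 0.40 at day 90 and 5.29 ± 0.40 at day 110 (adjusted p = 2.85e-09 for the change between the ages) and PCK2 by -0.36 ± 0.28 at day 90 and 2.38 ± 0.28 at day 110 (adjusted p = 2.70e-06 for the change between the ages). MYH3 differed by -0.60 ± 0.21 at day 90 and -2.87 ± 0.21 at day 110 (adjusted p = 4.34e-07 for the change between the ages) and DLK1 by -0.66 ± 0.22 at day 90 and -3.35 ± 0.22 at day 110 (adjusted p = 1.48e-08 for the change between the ages). The difference was more positive at day 110 for PYGM, LDHA, PGK1, SORD, RASGRP3 and ECI1 and more negative for NUSAP1, STMN1, NCAM1 and CDK6, all past the threshold for that change. The median difference moved from 0.067 to 0.42 over the glycolysis list, from 0.059 to -0.79 over the mitosis list and from -0.17 to -0.64 over the collagens.

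**Figure D4:**
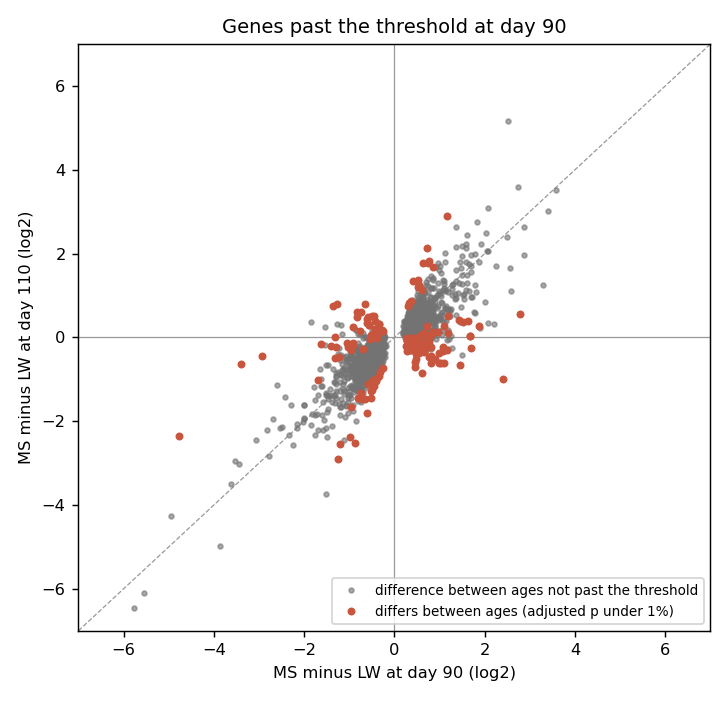
MS minus LW on the log2 scale at day 90 (x) and day 110 (y), in different fetuses, for the 1436 genes whose main probe passed the threshold at day 90, with the dashed line at equal differences. Red points are the 168 genes whose breed difference changed between the ages at an adjusted p under 1%, and 87.5% of all points lie in the quadrants of equal sign.

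The crosses of day 90, 8 LWMS and 8 MSLW fetuses, lay between the breeds for most of the called probes. Their arrays are not part of the MS minus LW contrast. They did share its normalization, its probe filter and its estimate of the spread, so they are not wholly independent of the calls. The mean of LWMS lay between the purebred means for 95.0% of them and that of MSLW for 94.6%. On a scale from 0 at the LW mean to 1 at the MS mean, the median position was 0.55 for LWMS and 0.52 for MSLW. The crosses may share sows with the purebred fetuses, LWMS with MS and MSLW with LW. Between the crosses themselves 212 of all probes (0.5%) and 49 named genes (0.446%) passed the threshold.

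X-linked and mitochondrial genes were an exception. A male fetus has its X chromosome, and any fetus its mitochondria, from the dam alone, so that for these genes an LWMS fetus carries the MS copy and an MSLW fetus the LW copy. Chromosomes were taken from the RefSeq annotation of Sscrofa11.1. Of 362 X-linked genes 61 were called between the breeds (16.9%), 22 higher and 39 lower in MS, against 12.9% of 9513 autosomal genes. The crosses differed in the same direction, LWMS on the side of MS, for 54 of these 61 (88.5%), and 23 of them were also called between the crosses. Of 1223 called autosomal genes, 593 (48.5%) had the same sign between the crosses and 5 were called with it. Over all tested genes of a class, called or not, 66% of the X-linked and 54% of the autosomal ones shared the sign. On the scale from LW to MS, the median position of the called X-linked genes was 0.88 for LWMS and 0.13 for MSLW, and that of the autosomal ones 0.55 and 0.53. All 6 called mitochondrial genes had the same sign between the crosses, at 0.86 for LWMS and -0.0072 for MSLW. All 13 mitochondrial genes tested, called or not, shared the sign. These shares are descriptions, without a test of the classes against each other.

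Single genes show the pattern, with IQSEC2, IL1RAPL2, RAB9B and EIF2S3 named after their values were seen. SERPINA7 had means of 7.29 ± 0.36 in LW, 7.43 ± 0.52 in MSLW, 2.65 ± 0.69 in LWMS and 2.51 ± 0.92 in MS (± SD, n = 8 each), so the crosses differed by -4.78 ± 0.45 (adjusted p = 8.43e-12), as far apart as the breeds. IQSEC2, an exchange factor of synapses, had 11.33 ± 0.13 in LW, 11.10 ± 0.11 in MSLW, 9.78 ± 0.14 in LWMS and 9.64 ± 0.19 in MS, and the crosses differed by -1.32 ± 0.12 (adjusted p = 2.75e-12). For IL1RAPL2 the cross difference was -1.27 ± 0.13 (adjusted p = 1.23e-10) against -1.22 ± 0.13 between the breeds, and for RAB9B -1.21 ± 0.22 (adjusted p = 2.85e-04) against -1.35 ± 0.22. PHKA1 gave 0.62 ± 0.10 (adjusted p = 4.65e-05) against 0.80 ± 0.10. The exception called the other way was EIF2S3, an initiation factor with an X-linked copy, higher in MS by 0.73 ± 0.11 while the crosses differed by -0.79 ± 0.11 (adjusted p = 5.09e-07). Its means were 11.97 in LW, 12.70 in MSLW, 11.91 in LWMS and 12.70 in MS, so each cross lay with the breed of its boar. Whether the EIF2S3 probe reads the X-linked copy was not tested. All 12 ND2 probes were lower in LWMS than in MSLW, with differences from -3.05 to -0.19, and 8 of them passed the threshold. COX3 differed between the crosses by -0.41 ± 0.055 (adjusted p = 5.20e-07) and ND6 by -0.55 ± 0.093 (adjusted p = 8.57e-05). COX7B, which the annotation used here does not place, differed by -1.04 ± 0.10 (adjusted p = 6.29e-12), much as between the breeds.

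Imprinted genes gave the opposite picture in MAGEL2, with means of 8.93 ± 0.26 in LW, 10.20 ± 0.13 in MSLW, 8.66 ± 0.28 in LWMS and 10.14 ± 0.18 in MS. The crosses differed by -1.54 ± 0.13 (adjusted p = 4.15e-14), and MSLW, whose boar was MS, lay nearer to MS. Its neighbour NDN, chosen after its values were seen, was not called between the breeds (0.24 ± 0.10) and differed between the crosses by -0.46 ± 0.10 (adjusted p = 0.00401). SLC38A4 was not called between the crosses, at -0.41 ± 0.22 (adjusted p = 0.558). Also named after their values were seen, ESR1 and GPR83 went different ways. ESR1, the estrogen receptor, is autosomal, rose in MS by 0.86 ± 0.12 and was higher in LWMS by 0.68 ± 0.12 (adjusted p = 4.25e-04), while GPR83 fell in MS by 1.47 on the log2 scale and was higher in LWMS by 1.62 ± 0.33 (adjusted p = 0.00288).

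**Figure D5:**
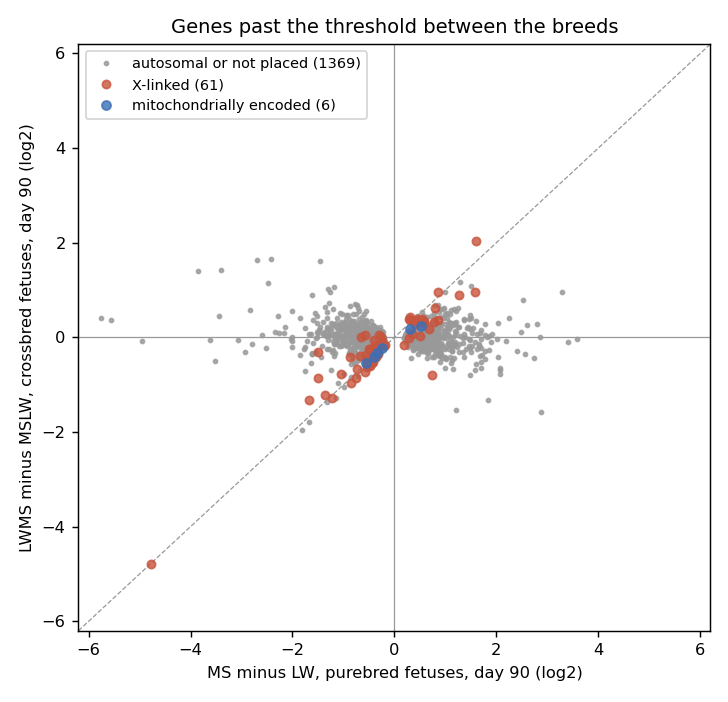
MS minus LW in purebred fetuses (x) against LWMS minus MSLW in crossbred fetuses (y), log2 scale, day 90, for the 1436 genes past the threshold between the breeds, with the dashed line at equal differences. The 61 X-linked genes (red) and 6 mitochondrially encoded genes (blue) lie mostly near that line, 54 and 6 of them with the same sign, and most other genes lie around 0 on the y axis.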

How the data were processed

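Total RNA of longissimus muscle from 61 fetuses was labelled with Cy3 and hybridized to 1-colour Agilent arrays, scanned and read by the authors with Agilent Feature Extraction 10.10.1.1, per the labels. The deposited scanner intensity (background-subtracted processed signal) was taken, spots marked non-uniform were left out, arrays were quantile-normalized together, log2 was taken and spots of 1 probe were averaged. The authors' deposited log2 values, used as an alternative, held 44400 spots matched to the scanner rows and differed from log2 of the quantile-normalized median signal by a median of 0.0207. Kept probes were those the scanner called well above background in 80% or more of any 1 of the 8 groups, which left 42436 of 60305 probes and 22726 with a gene symbol, from the array's names or RefSeq accessions. limma 3.58.1 (R 4.3.3) fitted the 8 group means over all 61 arrays. The main tests were the MS minus LW contrast at day 90 and its change to day 110, with Benjamini-Hochberg adjustment over all kept probes at 1%. The same fit and adjustment gave MS minus LW at day 110 and LWMS minus MSLW at day 90. The alternative settings were not examined for these further contrasts. The number of arrays limits the precision. A bound ("at least") sets the bright group's mean against, on each array of the other, the higher of the lowest signal well above background and the probe's own signal. Named genes were the 12 with the largest difference in each direction among called genes, up to 4 called members of each list (the nearest 2 where fewer than 2 passed) and genes the study names, less some members that are not reported here, and others are marked as chosen after their values were seen. The members and lists were chosen with earlier results of these data known. Alternatives covered signal, background, scaling, filter, array sets, slide, threshold and leaving out each fetus. Replicate numbers were given in accession order, which at day 90 is also the order of the slides, so MS and LW fetuses of the same number share a slide.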

Additional observations from a re-analysis of the deposited data

Results flagged for a closer look

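In 25 of 328 groups of 8 fetuses, over the 164 named genes and both breeds, the highest or lowest fetus stood apart from the rest by Dixon's criterion, which chance meets in about 1 in 20 groups. The lowest LW fetus stood apart for ANKRD2 (12.77, next 13.14), COX3 (18.53, next 18.76), COX7B (14.68, next 14.79), LDHA (14.45, next 14.68), MYL6B (16.005, next 16.24), ND6 (14.64, next 14.92), PHYHD1 (9.04, next 9.27), RAB9B (9.10, next 9.97), RPS4X (16.26, next 16.52) and SLC11A2 (10.05, next 10.33). Among LW fetuses the highest stood apart for CD68 (4.55, next 3.95), DUT (13.66, next 13.39), HBB (11.28, next 10.80), PCK2 (8.41, next 8.07), PGM1 (13.44, next 11.62), RPL27 (16.44, next 16.27), SORD (7.06, next 6.81), ST8SIA2 (3.88, next 2.75) and TMOD3 (9.52, next 8.34). The lowest MS fetus did so for LOC100302368 (3.69, next 7.43). The highest MS fetus did so for FGG (3.99, next 1.95), MTFP1 (3.32, next 2.40), PSMB9 (11.18, next 10.53), SORD (7.03, next 6.67) and UQCRC2 (12.56, next 11.87). Values are log2 normalized intensities. Several of these flags fall on the same fetus, so they are not independent. LW replicate 8, the array with the most spots marked non-uniform, was the lowest for ANKRD2, COX3, MYL6B and ND6 and the highest for HBB. Other LW fetuses were the lowest for COX7B, LDHA and PHYHD1.

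For 44 of the 164 genes named above the breed difference itself changed between the ages at an adjusted p under 1% in limma. Over all genes by main probe the share was 7.81%. The 164 include genes that the study drew from probes with an interaction of age and genotype on these same arrays. The count is therefore not a result about the genes named. The value given is the difference at day 110 less that at day 90, both MS minus LW on the log2 scale. It was positive for ARG2 (5.37), KRT19 (2.77), PCK2 (2.74), FGG (2.49), SERPINA7 (2.42), RASGRP3 (1.21), GPD1 (1.05), LDHA (1.00) and PYGM (0.93). Smaller positive values were those of SORD (0.92), ECI1 (0.88), ND6 (0.87), LPL (0.86), UGP2 (0.83), ESR1 (0.82), IL1RAPL2 (0.75), LRP4 (0.71) and IQSEC2 (0.68). Smaller positive values were those of ND4L (0.67), ND2 (0.66), PGK1 (0.60), DUT (0.51), ND4 (0.45) and TNNT3 (0.37). It was negative for ZP2 (-3.40), DLK1 (-2.69), MYH3 (-2.27), ENPEP (-2.24), GBP1 (-1.64), CTGF (-1.59), CSPG4 (-1.42), NUSAP1 (-1.07) and NCAM1 (-0.96). Smaller negative values were those of LUM (-0.81), CHRNA1 (-0.78), MBP (-0.77), STMN1 (-0.76), S100B (-0.68), FABP5 (-0.67), CREM (-0.60), IGFBP5 (-0.56) and CDK6 (-0.49). Smaller negative values were those of MYL6B (-0.48) and IGF2 (-0.42).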

How the results depend on the processing

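At a threshold of 5% the counts grew to 8409 probes, 2241 genes by main probe and 5899 probes with a change between the ages. All other settings left the 3 counts within 1.5 times of the reported 5447, 1436 and 2524, from 4473 probes (well above background on all arrays) to 6292 at day 90. Leaving out 1 fetus gave 4909 to 5144 probes, 1305 to 1389 genes and 2069 to 2456 probes with a change between the ages. The labels give no replicate numbers, but each slide pairs an MS with an LW fetus of day 90. With slide as a block 6292 probes, 1705 genes and 3742 probes with a change between the ages passed, while MBP (adjusted p = 0.0105) and PSMB8 (adjusted p = 0.0107) missed the threshold. Of the 127 named genes past the threshold, 35 missed it under at least 1 setting other than leaving out 1 fetus, 14 of them under 75th percentile scaling and 14 by the mean of all probes, and 7 missed it when 1 fetus was left out. Calls were also gained. Of the 37 named genes not past the threshold, at least 14 were called under another setting or at the 5% threshold, and 2 when 1 fetus was left out. DLK1 and IGF2 were called by the mean of all probes. The direction turned by the mean of all probes for TNNT3 (0.090), ND6 (0.15), CD5 (0.051) and SLC11A2 (0.0032), and with normexp background correction for NUSAP1 (0.00090). Leaving out 1 fetus moved IGF2 from -0.026 to 0.014, NUSAP1 from -0.054 to 0.019 and RASGRP3 from -0.028 to 0.086, turning their direction, none of them past the threshold. The cause of these changes was not tested, except that the mean of all probes takes in probes that differ from the main one. By the mean of all probes the counts higher and lower in MS were 7 and 1 for antioxidant enzymes, 4 and 0 for the citric acid cycle, 2 and 5 for ribosomal proteins and 2 and 2 for imprinted genes, and with the 16 arrays fitted alone 5 and 1 for vessel growth, 4 and 5 for matrix genes and 2 and 3 for imprinted genes. The 2 arrays left out together and the mean of all probes were chosen after seeing the data. Probes below background in a breed give only a bound there.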
